A study of Brassica napus with 24 samples.

Results

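Anthers of middle buds (An-MBs) of mock-treated rapeseed plants were compared with whole small buds (SBs) of mock-treated plants, that is, the normal step from the young bud to the young anther. The comparison used 6 of the 24 arrays of the series, namely the 3 samples titled anthers of middle buds, mock, and the 3 titled small buds, mock, and all 43603 probes other than control spots were considered. The plants were Brassica napus L. of the cultivar Zhongshuang No. 9, selfed for 8 generations and grown in 1 field plot. At bolting, mock-treated plants were sprayed on the leaves (about 15 mL per plant) with a solution of DMF at 50 ppm and Tween 80 at 5 ppm but none of the chemical hybridization agent monosulfuron ester sodium (MES), whereas MES-treated plants, used below for 1 contrast only, received the same spray with 0.1 µg/mL MES. SBs were buds shorter than 1 mm taken whole, up to and including the pollen mother cell stage. An-MBs were anthers dissected from buds of 1 to 3 mm, from meiosis to the early uninucleate microspore. Anthers of large buds (An-LBs, from buds over 3 mm) and young leaves (Ls) of the same mock-treated plants served as further references. Each replicate was a pool drawn from 20 rows of plants, so that the spread between replicates is a spread between pools. Because SBs held sepals, petals and pistil as well as anthers, the change of tissue and the change of stage cannot be told apart, nor can fewer cells of a type and less RNA per cell.

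In a flower bud the tapetum, the innermost layer of the anther wall, feeds the developing microspores and makes the sporopollenin of their outer wall, the exine. Microspores then switch on a programme of their own, which includes enzymes that remodel pectin, the gel of the plant cell wall, and the ion pumps, channels and actin-binding proteins that a pollen tube needs for growth at its tip. Green floral tissue, in contrast, carries the photosynthetic apparatus of a young leaf.

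Total RNA was hybridised to 1-colour Agilent arrays, and levels are given as log2 normalised signal, so that a difference of 1 is a 2-fold change. A probe was tested when 3 or more of the 6 arrays showed its spot well above background, which held for 34855 probes. Of the other 8748 probes, 6667 were well above background on none of the 6 arrays. A probe was called when limma's Benjamini-Hochberg adjusted p was below 0.05 and the change was at least 2-fold. Where a named probe was well above background on no array of the dimmer group, a fold change is given only as a bound, written "at least N-fold". The bound sets the brighter group against the detection limit of the dimmer arrays. Log2 differences are fitted values throughout, also for such probes. There they rest on background signal in the dimmer group and do not measure the size of the change. Names are those of the Arabidopsis genes that the study paired with the probes by sequence similarity, and since rapeseed is an allotetraploid, near-identical gene copies may share a probe. On the 6 arrays between 75.5% and 80.1% of spots were well above background, the median signal lay between 892.5 and 1208, and 8 to 15 spots per array were outlying. Within each slide the SBs array and the An-MBs array always held the same 2 positions, so that array position and tissue cannot be told apart.

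The step changed 6120 probes, 17.6% of those tested. In An-MBs 2891 probes (8.29%) were up-regulated and 3229 probes (9.26%) were down-regulated, while the median log2 difference over all probes tested was -0.05. The rises were steeper. Which direction had more calls depended on the setting, since a 75th percentile shift gave 3007 rises and 2796 falls. The median fold change was 4.84 for the up-regulated and 3.40 for the down-regulated probes, and 347 and 83 probes, respectively, changed by at least 100-fold. With bounds in place of fitted values these became 270 and 67 probes. At the other end, 1255 of the up-regulated and 1892 of the down-regulated probes changed by 2- to 4-fold. There were 721 up-regulated probes that were well above background on all 3 An-MBs arrays and on no SBs array, against 286 down-regulated probes with the reverse pattern. The signals of the 3 SBs arrays and the 3 An-MBs arrays did not overlap for 16272 probes (46.7% of those tested). For the called probes they did not overlap with 1 exception, the down-regulated probe A_46_P256344, which has no Arabidopsis name.

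**Figure D1:**
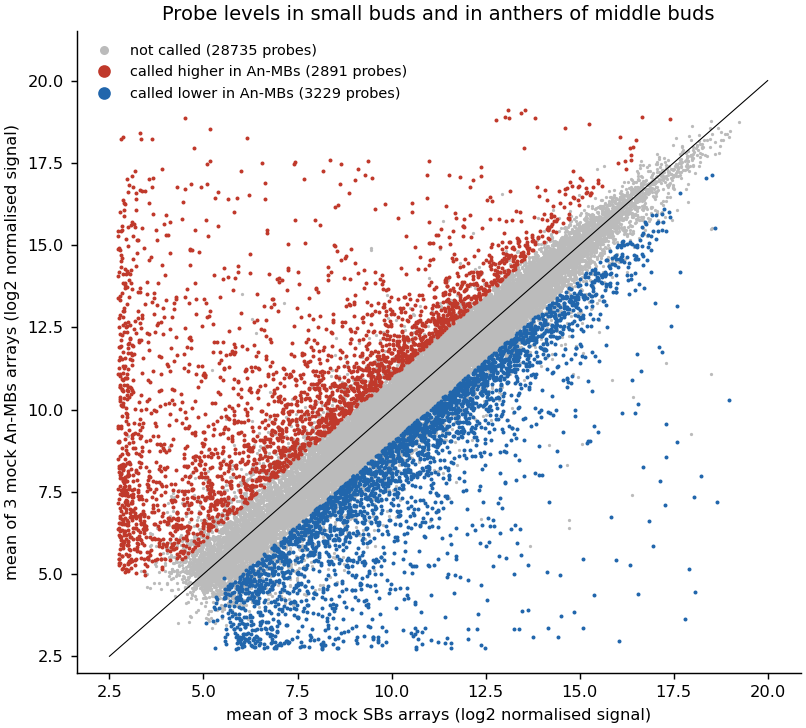
Mean level of each of the 34855 tested probes in mock SBs (x axis) and mock An-MBs (y axis), both as log2 normalised signal over 3 arrays, with the diagonal marking equal levels. The 2891 up-regulated probes (red) fan out along the left side, many from signals near background in SBs, whereas the 3229 down-regulated probes (blue) stay closer to the diagonal.

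Replicate 2 of An-MBs stood nearest to the SBs. It was the An-MBs array closest to the SBs for 77.7% of the up-regulated and 67.5% of the down-regulated probes, and the median level of the up-regulated probes was 10.72, 10.20 and 11.23 in An-MBs replicates 1, 2 and 3 against 7.54, 7.37 and 7.15 in the SBs replicates. Compared array by array within a slide, 94.4%, 77.1% and 98.1% of the up-regulated probes were at least 2-fold higher in An-MBs on slides 1, 2 and 3, and 2112 of the 2891 were so on all 3 slides. For the down-regulated probes, 1975 of 3229 were at least 2-fold lower on all 3 slides. The probes had been called for a mean change of at least 2-fold on these same arrays. The shares and counts by slide therefore follow in part from that choice and are no independent evidence of the change. The count of down-regulated probes changed by over 1.5 times with single arrays, to 1865 without SBs replicate 1, to 2015 without An-MBs replicate 1 and to 2136 without An-MBs replicate 3.

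The steepest rises with an Arabidopsis name belonged to genes of unknown or protective function and to pectin enzymes. AT5G53820 encodes a late embryogenesis abundant (LEA) protein, a class known for protecting cells against drying. On 1 of its 4 probes the level was 2.80, 2.90 and 2.82 in SBs replicates 1, 2 and 3 and 15.17, 15.29 and 16.31 in An-MBs replicates 1, 2 and 3. All SBs arrays lay at background and all An-MBs arrays among bright signals, so that the transcript was at least 1491-fold higher in An-MBs (fitted log2 difference 12.75, adjusted p = 1.6e-05). The 4 probes of this gene rose by log2 differences between 12.75 and 13.60. AT3G28790, which carries the uncharacterised DUF1216 domain, had the largest rise of any named gene. The probe that changed most read 3.72, 2.95 and 2.89 in SBs and 16.65, 16.97 and 18.11 in An-MBs, which was at least 4691-fold higher (log2 difference 14.05). No An-MBs value came near an SBs value, and all 7 probes of the gene rose, although by widely different amounts (2.54 to 14.05). The DUF1216 genes were looked at as a family after these values had been seen. Of the 18 probes of 6 such genes 15 were tested and 15 were up-regulated, against 8.29% of all tested probes. Mean levels went from 2.78 to 9.04 in SBs to 8.39 to 17.55 in An-MBs. The family was chosen for its steep members, and its names came from tables picked on these same samples. The count is therefore no independent evidence about the family. AT5G48575, another member, rose on both probes by 13.18 and 13.39, and AT3G28980 rose by 12.37. Both AT5G48575 probes were well above background on no SBs array, with bounds of 2959- and 3068-fold.

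The list of pectin enzymes comprised 53 probes of 20 genes. Of the 34 tested probes 27 were up-regulated and 1 was down-regulated, with a median log2 difference of 5.78 (4.49 with bounds), against -0.05, 8.29% up-regulated and 9.26% down-regulated over all probes, which are also the shares against which the lists below are set. The Arabidopsis names came from tables of transcripts that the study had picked on these same samples, because MES changed them or tissues differed, so that the share of calls within any list below is no independent evidence of its direction. Detection shaped these counts as well. Of the 34 tested probes 17 were well above background on no SBs array, and they were tested only because all 3 An-MBs arrays were bright. With detection required on all 6 arrays, 3 members of the list were up-regulated and 0 were down-regulated. Polygalacturonases cut the pectin backbone. All 9 probes of the polygalacturonase gene AT3G07840 rose, by 5.76 to 13.12. For 8 of them, well above background on no SBs array, the bounds ran from 21.87- to 3358-fold. On 1 of them the levels were 4.32, 2.93 and 3.37 in SBs and 15.35, 16.14 and 17.32 in An-MBs, at least 2391-fold higher (log2 difference 12.73, adjusted p = 7.3e-05). The 3 SBs arrays were all at background. AT5G48140, a second polygalacturonase, rose on 3 probes by 5.80, 8.83 and 11.60. Its middle probe read 2.76, 7.12 and 2.79 in SBs, so that replicate 2 of the SBs alone carried signal there. PGA4 rose by 5.41, and the polygalacturonases AT3G07820, AT3G07830 and AT3G07850 rose by 4.19, 4.79 and 4.53 with levels in An-MBs that remained low.

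Pectin methylesterases remove methyl groups from pectin and thereby set its stiffness, and VANGUARD1 (VGD1) and its neighbours VGDH1 and VGDH2 are the members known from Arabidopsis pollen tubes. VGDH2 was measured at 5.59, 4.75 and 4.95 in SBs and at 15.87, 16.77 and 17.92 in An-MBs, a 3461-fold rise (log2 difference 11.76 with SE 0.53, adjusted p = 7.3e-05). The groups lay far apart, with An-MBs replicate 3 the highest. VGDH1 rose by 10.16 (at least 885-fold), VGD1 by 7.93 and 8.36 on 2 probes, and the pollen pectin methylesterase PPME1 by 5.40 and 10.20. The smaller change of PPME1 came from a probe that read 9.87, 9.83 and 13.04 in An-MBs, so that replicate 3 was well above the others. PMEPCRD, named as a pectin methylesterase or its inhibitor, went from 5.56, 5.69 and 5.90 to 12.15, 11.04 and 11.85, a rise of 5.96. It differed from the others in its later course, since its mean was 7.43 in An-LBs.

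The 1 down-regulated pectin probe belonged to AT5G17200, a polygalacturonase that was bright in SBs (12.57, 13.28 and 12.26) and low in An-MBs (8.97, 3.23 and 3.50). Although the groups did not overlap, An-MBs replicate 1 stood far above the other An-MBs arrays. The fall of 7.47 had an adjusted p of 0.018, which became 0.000222 without An-MBs replicate 1. It lost its call without any 1 of the SBs arrays, with an adjusted p of at least 0.052, and without An-MBs replicate 3 (adjusted p = 0.0606). The pectin methylesterase AT5G07430 was not called. Its levels were 7.27, 6.87 and 7.22 in SBs and 7.40, 7.11 and 10.74 in An-MBs, with only replicate 3 apart. The pectin acetylesterase AT5G23870 was not called on any of 3 probes (-0.91 to -0.11).

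A further 19 pectin probes were not tested, 15 of them because they were above background on none of the 6 arrays, and all 19 were well above background on the 3 An-LBs arrays. The pectate lyase AT59 was at 3.26 in SBs and 3.07 in An-MBs but at 16.1 in An-LBs, and the inhibitor-family gene EDA24 reached 15.5 there. The list thus held enzymes that were already bright in An-MBs beside enzymes that were at background until An-LBs, and VGDH2 had 1 probe of either kind (the second averaged 2.93 in An-MBs and 14.7 in An-LBs).

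The genes of pollen tip growth followed the same direction at lower levels. Of 43 probes of 19 genes 25 were tested, of which 20 were up-regulated and 1 was down-regulated (median log2 difference 3.35, or 1.91 with bounds), against 8.29% and 9.26% of all probes. Of the 25, 8 were well above background on no SBs array and were tested through the An-MBs arrays alone. With detection required on all 6 arrays, 6 members were up-regulated and 0 were down-regulated. The proton pump AHA9, known from Arabidopsis anthers, was expressed in SBs already (10.46, 10.01 and 10.01) and reached 15.14, 15.47 and 16.86 in An-MBs, a 50.6-fold rise (log2 difference 5.66 with SE 0.46, adjusted p = 0.00065). Every An-MBs array exceeded every SBs array by more than the spread within either group. A second pump, AHA6, rose by 4.15, from 5.25, 5.13 and 5.42 to 8.90, 8.86 and 10.50.

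Among the actin genes, ACT11, an actin of reproductive tissue, was measured at 9.88, 9.77 and 9.68 in SBs and 13.35, 12.54 and 13.50 in An-MBs, a 10.2-fold rise that its second probe matched (9.01-fold). The lowest An-MBs array was replicate 2. The actin-depolymerising factor ADF7 of pollen went from background (2.87, 2.85 and 2.82) to 10.45, 10.01 and 11.46, at least 48.2-fold. The fimbrin FIM2, which bundles actin, was abundant in both tissues and rose by 1.61. The profilin PFN3 was not called (-0.56, adjusted p = 0.071).

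Of the membrane proteins, the calcium channel CNGC18 of the pollen tube rose by 5.01 (at least 15.1-fold), with 4.47, 2.85 and 4.54 in SBs against 8.66, 8.51 and 9.71 in An-MBs. MLO5 rose by 5.37 and 6.02, the receptor kinase ANX2 by 4.29 and the exocyst subunit EXO70C2, which serves secretion, by 4.26 and 4.64. The exception was 1 probe of the pollen syntaxin SYP125. It was weak in SBs (6.46, 6.41 and 6.15), at background in An-MBs (3.14, 3.09 and 2.90) and at 14.7 in An-LBs. The fall was 3.29 (at least 3.34-fold). Under normexp background correction it was no longer 2-fold (log2 difference -0.99).

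Another 18 probes of this list were not tested, and all 18 were well above background in An-LBs. The cation exchanger CHX23 averaged 2.78 in An-MBs and 16.01 in An-LBs, and the GTPase activator ROPGEF12 averaged 2.82 and 14.8. The proton pump AHA8 was likewise at background in An-MBs (3.53) and bright in An-LBs (13.6). Of the 3 pollen-type proton pumps named here 2 were thus already raised in An-MBs.

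**Figure D2:**
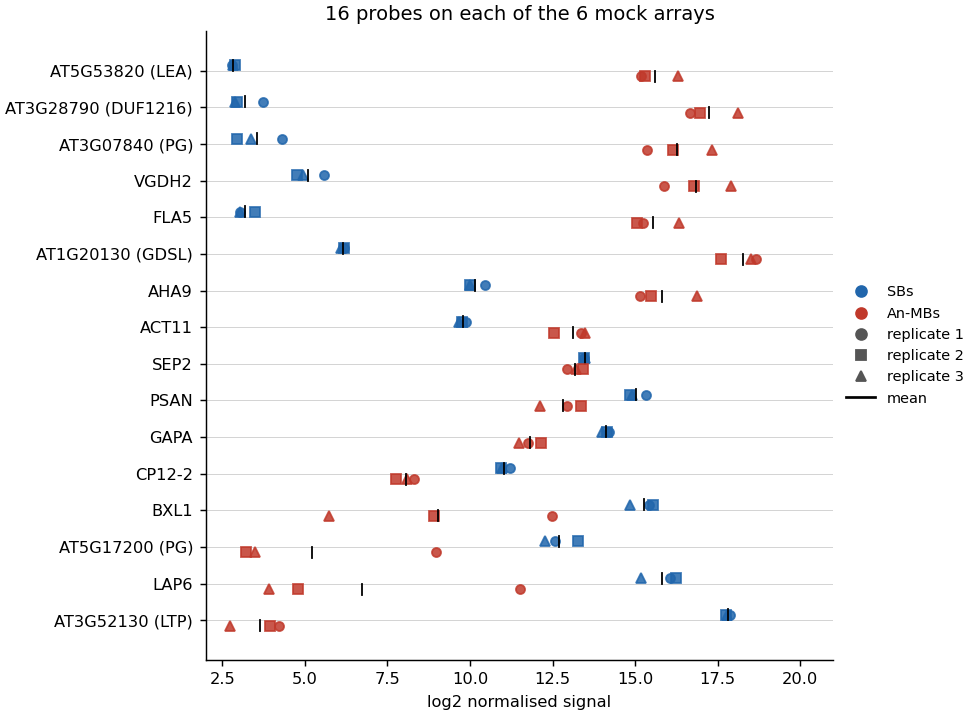
Level of 16 probes on each of the 6 mock arrays (log2 normalised signal), with SBs in blue, An-MBs in red, a symbol for each replicate and a bar at the mean of 3. The first 8 probes rose, SEP2 stayed near 13 in both tissues, and the last 7 fell, among which BXL1, AT5G17200 and LAP6 spread widely over the 3 An-MBs arrays.

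The other cell wall genes were mixed. Of 36 probes 29 were tested, 10 were up-regulated and 5 were down-regulated, with a median of 0.41 that changed sign between settings (-0.11 to 0.55). With detection required on all 6 arrays, 3 were up-regulated and 5 were down-regulated. FLA5, a fasciclin-like arabinogalactan protein of the cell surface, had the steepest rise. It read 3.03, 3.51 and 3.04 in SBs and 15.23, 15.06 and 16.34 in An-MBs, at least 1444-fold higher (log2 difference 12.36, adjusted p = 2.2e-05). UGE3, an epimerase that supplies UDP-galactose for wall polymers, rose 93.7-fold from 6.11, 7.64 and 6.68 to 13.33, 12.82 and 13.92. The multicopper oxidase-like sks12 rose on 3 probes by 5.88, 5.96 and 10.38, of which the middle one lost its call without SBs replicate 1 or 3 or An-MBs replicate 1 or 3 (adjusted p of 0.0568 to 0.0789). For 2 sks12 probes, well above background on no SBs array, the bounds were 15.49- and 397.5-fold. The beta-galactosidase BGAL11 rose on 2 probes by 5.00 and 6.01. FLA3, a second fasciclin-like protein, was not called (0.73). It was at 16.97 in An-LBs.

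BXL1, a beta-xylosidase that trims wall polysaccharides, gave different answers on its 5 probes. On the brightest the levels were 15.41, 15.54 and 14.85 in SBs and 12.48, 8.91 and 5.73 in An-MBs, a fall of 6.22 (adjusted p = 0.035). The call was lost without any 1 of the SBs arrays or An-MBs replicate 2 (adjusted p of 0.0615 to 0.106), and without the detection filter (0.0545). The groups did not overlap, but the An-MBs arrays differed among themselves by more than the lowest SBs array did from the highest An-MBs array. A second probe fell by 3.74, and 3 probes were not called (0.09, 1.22 and 1.93). Whether the probes report different copies of the gene was not tested. TBL43, a member of the family that acetylates wall polymers, fell from 9.01, 9.71 and 10.21 to background, at least 32.9-fold. CSLA09, a mannan synthase-like gene, fell by 1.30 and 1.15 (1 of the calls was lost without any 1 of 4 arrays), and the extensin-like protein ELP fell by 1.26.

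Genes of exine and anther lipids held the largest fall of the comparison among named genes as well as some of the largest rises. Of 27 probes 21 were tested, 9 were up-regulated and 5 were down-regulated (median 0.93). AT3G52130, a lipid-transfer protein, was among the brightest signals of SBs (17.88, 17.75 and 17.79) and lay at background in An-MBs (4.21, 3.95 and 2.72). It was thus at least 9467-fold lower in An-MBs (log2 difference -14.18 with SE 0.39, adjusted p = 2e-05). In An-LBs (3.48) and Ls (3.64) it was equally low. LAP6, a polyketide synthase of the sporopollenin pathway and the only tapetum marker with a named probe, was bright in SBs (16.06, 16.24 and 15.19), and in An-MBs it was at 11.51, 4.80 and 3.91. No An-MBs array reached the SBs, while replicate 1 stood far above replicates 2 and 3. The fall of 9.09 had an adjusted p of 0.021, and 0.000234 without An-MBs replicate 1. It was not called without any 1 of the SBs arrays (adjusted p of 0.0571 to 0.0757) or without An-MBs replicate 3 (0.0611). FAR1, a fatty acyl reductase, fell by 2.76 with An-MBs replicate 2 (7.76) close to the SBs (8.97, 8.52 and 9.18). Its adjusted p of 0.034 became 0.0657 when the replicate number was added as a block, and 0.0643 to 0.109 when any 1 array other than An-MBs replicate 2 was left out. The peroxisomal thiolase KAT5, an enzyme of beta-oxidation, fell evenly, from 14.58, 14.26 and 14.33 to 12.14, 12.39 and 12.03, a 4.60-fold change.

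Against these falls stood the GDSL lipase AT1G20130, with 6.18, 6.17 and 6.09 in SBs and 18.65, 17.60 and 18.51 in An-MBs, a 4402-fold rise (adjusted p = 1.6e-05). Both groups were tight, and An-MBs replicate 2 was the lowest of its group. The oleosin AT2G25890, a coat protein of oil bodies, rose by 8.31 and 8.77, with SBs replicate 2 the highest SBs array on both probes. A second lipid-transfer protein, AT3G59455, rose from background (3.15, 3.00 and 3.62) to 13.04, 13.13 and 14.52, at least 366-fold, so that the family moved in both directions. The elongase KCS11 rose by 1.09 and 1.53. The callose-wall regulator ARF17 was not called (0.52, adjusted p = 0.16), nor were KAS III (0.30) and the hydroxylase FAH1 (-0.01). The list had 6 untested probes, and the oleosin AT1G48990 among them averaged 2.81 in An-MBs and 14.97 in An-LBs.

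Most genes of photosynthesis fell together and by modest amounts. All 41 probes were tested, 26 were down-regulated (against 9.26% of all probes) and 1 was up-regulated, with a median log2 difference of -1.33. The median level over the list was 13.70, 13.23 and 13.59 in the SBs replicates, 11.93, 12.34 and 11.95 in the An-MBs replicates and 16.21, 16.58 and 16.53 in the Ls replicates. The order Ls, SBs, An-MBs therefore held without overlap between the groups. All 26 down-regulated probes were at least 2-fold brighter in Ls than in SBs, which held for 41.6% of all down-regulated probes and for 95.1% of the 41 tested members of the list. Without SBs replicate 1 the count of down-regulated members was 16.

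CP12-2, a small regulator of the Calvin cycle, fell most, from 11.22, 10.93 and 10.98 to 8.31, 7.77 and 8.10, a 7.91-fold change (adjusted p = 0.00029). Every An-MBs array was below every SBs array. GAPA, a plastid glyceraldehyde-3-phosphate dehydrogenase of the same cycle, fell 4.96-fold from 14.20, 14.16 and 14.00 to 11.77, 12.15 and 11.50. Rubisco activase (RCA) fell 4.65-fold. In the light reactions, the photosystem I subunit PSAN fell from 15.34, 14.85 and 14.92 to 12.94, 13.37 and 12.12, a log2 difference of -2.23. The highest An-MBs array was replicate 2, as for many down-regulated probes. The antenna protein LHCA3 and the photosystem I subunits PSAL and PSAG fell by 1.87, 2.09 and 1.74. The 4 probes of GAPA-2 fell by 1.55 to 1.81, and the 4 probes of CRD1, an enzyme of chlorophyll synthesis, fell by 1.62 to 1.68.

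Some members did not follow. Of the 4 probes of CP12-1, 2 fell (by 1.07, a call lost without any 1 of 4 arrays, and by 1.15) and 2 were below the 2-fold limit (-0.74 and -0.82), and the photorespiratory aminotransferase AGT was not called on either probe (-1.33 with adjusted p = 0.053, and -1.24). PSAO was the 1 up-regulated member, from 11.06, 11.57 and 11.32 to 12.60, 12.34 and 12.94, and it was also the only one of the photosystem I subunits that was brighter in An-LBs (14.00) than in Ls (11.36).

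The genes of starch and sugars changed less. All 25 probes were tested, of which 3 were up-regulated and 7 down-regulated (median -0.51). The count of 7 became 3 without An-MBs replicate 1 and 4 without SBs replicate 3. The sugar transporter AT1G19450 was the clearest rise, from 11.66, 11.69 and 11.45 to 14.50, 14.14 and 15.18 on its brighter probe (8.02-fold) and by 2.39 on the other. SWEET11, which exports sucrose from cells, was measured at 9.30, 9.57 and 9.79 in SBs and 7.05, 6.72 and 7.15 in An-MBs, a 5.98-fold fall. Another SWEET11 probe fell by 1.55, while the remaining one was not called (-0.61). The inositol transporter INT2 fell by 2.74, but this was not called when any 1 array other than An-MBs replicate 2 was left out (adjusted p of 0.0562 to 0.0838). MIPS1, which makes inositol phosphate, fell by 1.38 and 1.19, and 1 of its calls was lost without any 1 of 5 arrays. The enzymes of starch synthesis and breakdown stayed below the 2-fold limit, with log2 differences of -0.89 for PGM, -0.88 for ADG1, -0.92 for DPE1, -0.27 for PHS2, 0.25 for AMY2 and 0.37 for BAM1.

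Of the 23 probes of regulators of floral organs and meristems 21 were tested, 1 was up-regulated and 4 were down-regulated (median -0.28), against 8.29% and 9.26% of all probes. The count of 4 became 2 without some arrays and 7 without An-MBs replicate 2. SEP2, a MADS-box factor of floral organ identity, gave 13.46, 13.45 and 13.49 in SBs and 12.95, 13.41 and 13.20 in An-MBs (log2 difference -0.28, adjusted p = 0.26). The groups did not overlap, as for 46.7% of all probes, but the means differed by less than the range of the An-MBs arrays. BEL1, a factor of ovule integuments, which dissected anthers do not hold, was not lower in An-MBs on either probe (0.34 and 0.79, neither called). IAA15, an auxin-response repressor, fell by 4.17, from 7.65, 8.50 and 8.28 to 5.17, 3.81 and 2.95. GA2OX2, which inactivates gibberellin, fell by 1.54. MYB88, a factor of stomatal cell division, fell by 2.08, but the call was lost when any 1 array other than An-MBs replicate 2 was left out (adjusted p of 0.0859 to 0.113), without the detection filter (0.0525) and under normexp (log2 difference -0.59). ATHB-15, a homeodomain factor of meristems and vascular tissue, fell by 1.22 (adjusted p = 0.026), a call that was lost when any 1 of 5 of the 6 arrays was left out. The flowering-time factor MAF4 was the 1 up-regulated member (2.01), at a low level.

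In the list of chromatin and cell division 29 of 31 probes were tested, 6 were up-regulated and 3 down-regulated (median -0.14), against 8.29% and 9.26% of all probes, so that the share of falls was near that of all probes. Leaving out single arrays gave between 0 and 5 down-regulated probes. A linker histone H1, AT1G06760, was very abundant in both tissues (18.14, 18.45 and 18.47 against 16.81, 17.69 and 16.62) and fell by 1.31, a call that was lost when any 1 array other than An-MBs replicate 2 was left out (adjusted p of 0.0699 to 0.0971). The DNA methyltransferase MET1 did not differ beyond the spread of the arrays (log2 difference 0.01, adjusted p = 0.99). Of the kinesins, motor proteins on microtubules, AT1G73860 rose from background (3.05, 2.99 and 2.92) to 8.89, 7.10 and 8.42, at least 8.49-fold, AT3G45850 rose by 1.70 and AT2G28620 fell by 1.04, a call lost without any 1 of 4 arrays. AT1G23750, an OB-fold protein, rose by 6.14 on 1 probe. There the SBs were at 2.74, 2.71 and 6.76, so that replicate 3 alone was above background, and the call was lost without SBs replicate 1 (adjusted p = 0.0511). On its second probe the rise was 1.16, which was lost without any 1 of 5 arrays. TOP3A, a topoisomerase needed in meiosis and the only meiosis marker with a named probe, was not called (7.47, 8.69 and 8.54 in SBs and 7.62, 7.62 and 7.44 in An-MBs, adjusted p = 0.19).

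**Figure D3:**
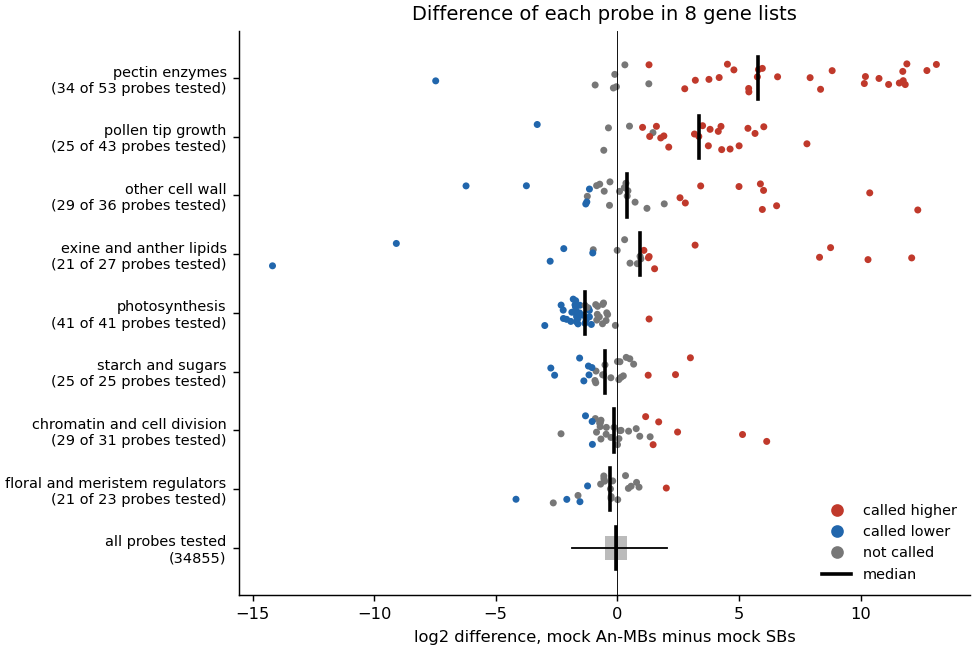
Log2 difference between mock An-MBs and mock SBs for each tested probe of 8 gene lists, coloured by call, with the median of each list as a bar. The lowest row gives all 34855 tested probes (grey box between the quartiles, line from the 5th to the 95th percentile). Pectin enzymes (median 5.78) and pollen tip growth (3.35) extend far to the right, and photosynthesis (-1.33) lies left of 0. Exine and anther lipids has a median of 0.93, and the medians of the other lists lie between -0.51 and 0.41.

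Outside the lists, several named genes rose as steeply. The tetraspanin TET15, a membrane protein, went from 3.11, 3.08 and 3.57 to 14.89, 14.73 and 15.80, at least 1092-fold. MSP2, which takes its name from a microspore-specific promoter, rose by 6.31 and 11.26 on 2 probes. The metallothionein MT2A, a metal-binding protein, rose from 3.78, 3.96 and 3.58 to 12.47, 12.80 and 14.25, at least 279-fold, and the peroxiredoxin TPX1 rose by 8.18 to 16.94, 17.02 and 17.94. Metal transporters were among them as well, with rises of 5.51 for ZIP10, a zinc transporter, and of 5.48 for FRD3, a citrate carrier of iron nutrition. The galactose mutarotase-like AT5G15140 fell by 7.85, from 13.64, 12.95 and 13.70 to 6.57, 5.54 and 4.63, and was brightest of all in An-LBs (18.13). The amino acid transporter-like AT5G02180 fell by 6.04 (at least 28.2-fold) and was likewise high in An-LBs (13.35). AGD4, a GTPase-activating protein of vesicle traffic, fell from 8.86, 8.40 and 8.85 to background, at least 17.2-fold. The chitinase-type hydrolase AT4G19810 fell by 5.30 and the glutathione transferase ATGSTU8 by 5.09. Of the 159 genes with more than 1 probe 79 had a call, in 52 all probes agreed in call, and only CYP81D1 had probes called in both directions. Over all 462 called probes with an Arabidopsis name, 302 remained called whichever of the 6 arrays was left out and 160 lost the call without at least 1.

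Of the called probes 462 carried an Arabidopsis name (270 up-regulated and 192 down-regulated, of 1172 tested), so most of the change lay in probes without one. Among the probes that all 6 arrays detected, the unnamed probe with the largest rise was A_46_P316380, from 5.63, 6.46 and 5.87 to 17.12, 17.23 and 17.39 (log2 difference 11.26). It was steady over the An-MBs arrays, whereas A_46_P211549, which rose by 10.09, spread in SBs (9.66, 5.97 and 6.66). The largest fall was that of A_46_P225549, from 19.03, 18.23 and 18.67 to 8.85, 5.88 and 6.79 (-11.47). A_46_P358760, which has the same target sequence identifier, fell from 18.55, 17.67 and 17.89 to 9.52, 5.87 and 6.62. A_46_P154219 fell by 8.68 with An-MBs at 15.24, 9.01 and 6.62, so that replicate 1 was again the An-MBs array with most of the SBs signal, as it was for LAP6, BXL1 and AT5G17200. Its call was lost without any 1 of the SBs arrays or An-MBs replicate 2 or 3 (adjusted p of 0.0574 to 0.094).

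Levels in An-LBs and Ls placed the step within the wider series of tissues, as a description only. Of the up-regulated probes 50.3% had their highest mean in An-MBs and 42.4% in An-LBs, against 22.3% and 25.5% of all tested probes. These probes were picked for a higher level in An-MBs than in SBs on the same arrays. SBs could therefore not be their highest tissue, and the larger shares follow in part from the choice. From An-MBs to An-LBs, 854 of the 2891 were a further 2-fold or more higher, 973 stayed within 2-fold and 1064 were at least 2-fold lower. These are 29.5%, 33.7% and 36.8%, against 16.3%, 56.3% and 27.4% of all tested probes. The named probes were not typical of the rest. Of the 270 with a name 212 were higher still in An-LBs and 18 were lower, while of the 2621 without a name 642 were higher and 1046 were lower. As stated, the names came from tables picked on these samples. Of the 27 up-regulated pectin probes 24 were higher still in An-LBs, as were 19 of the 20 of pollen tip growth. Of the down-regulated probes 37.9% were brightest in SBs, 53.9% in Ls and 8.21% in An-LBs. Over all tested probes the shares were 23.9%, 28.4% and 25.5%, but by their choice the down-regulated probes could not be brightest in An-MBs.

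**Figure D4:**
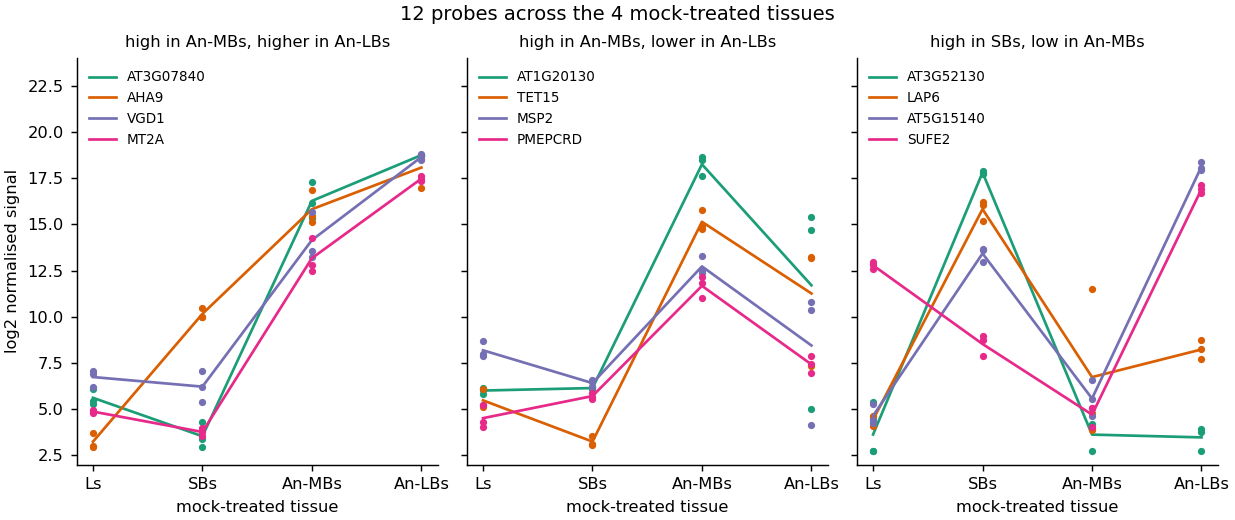
Level of 12 probes (log2 normalised signal) in the 4 mock-treated tissues, with points for the 3 arrays of each tissue and lines through the means. AT3G07840, AHA9, VGD1 and MT2A climbed on to An-LBs, AT1G20130, TET15, MSP2 and PMEPCRD had their highest mean in An-MBs, and of the 4 that fell from SBs to An-MBs, AT5G15140 and SUFE2 were bright again in An-LBs while AT3G52130 was not.

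The same step in MES-treated plants was fitted on its own 6 arrays, which share none with the mock step. It had 2275 up-regulated (6.63%) and 1480 down-regulated probes (4.31%) of 34328 tested, 10.9% in either direction. Of the rises 1121 were common to both, which is 38.8% of the mock rises and 49.3% of the MES rises, and of the falls 781 were common, which is 24.2% of the mock and 52.8% of the MES falls. The MES counts rested on single arrays. Without An-MBs replicate 2 of the MES-treated plants, whose median signal was only 383.9, they were 3584 and 3985, and without SBs replicate 1 of the MES-treated plants they were 1047 and 342. These alternatives were chosen after seeing the data. The difference between the steps was tested as an interaction on all 12 arrays, and 1489 probes of 36002 (4.14%) passed an adjusted p of 0.05, of which 980 were called in the mock step. Of these arrays the mock ones lay on slides 1, 2 and 3 and the MES ones on slides 4, 5 and 6. Treatment and slide set therefore cannot be told apart.

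Most probes that passed lay outside the lists. In the list of pectin enzymes 26 of 34 tested probes differed, against 4.14% of all probes tested for the interaction. The same share applies to the lists that follow. Each of the 26 had the smaller step after MES treatment, and the median step of the list was 5.78 without and 0.26 with MES. In pollen tip growth 15 of 25 differed, with medians of 3.35 and -0.04. In photosynthesis 5 of 41 differed (medians -1.33 and -0.43). As the names were picked on transcripts that MES changed in these samples, these counts are no independent evidence. The probe of the polygalacturonase AT3G07840 that reached 15.35, 16.14 and 17.32 in mock An-MBs was at background in MES An-MBs. AHA9 went from 10.16 to 15.82 in mock-treated plants and from 6.93 to 5.00 in MES-treated plants, an interaction of -7.59. The GDSL lipase AT1G20130 rose in both, by 12.10 and by 9.01, and the unnamed A_46_P211549 rose by 10.09 and 10.25 (interaction 0.16, adjusted p = 0.97). GAPA fell in both, by 2.31 and 1.68, and for LAP6 the difference of 7.80 did not pass the test (adjusted p = 0.17). LAP6 in MES-treated SBs was at 6.01 in replicate 1 and at 12.01 and 10.34 in replicates 2 and 3. For the lipid-transfer protein AT3G52130 the mock step was -14.18 and the MES step -2.06, a difference of 12.12 (adjusted p = 0.014), with MES-treated SBs replicate 1 at 8.05 and replicates 2 and 3 at 15.62 and 15.57.

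**Figure D5:**
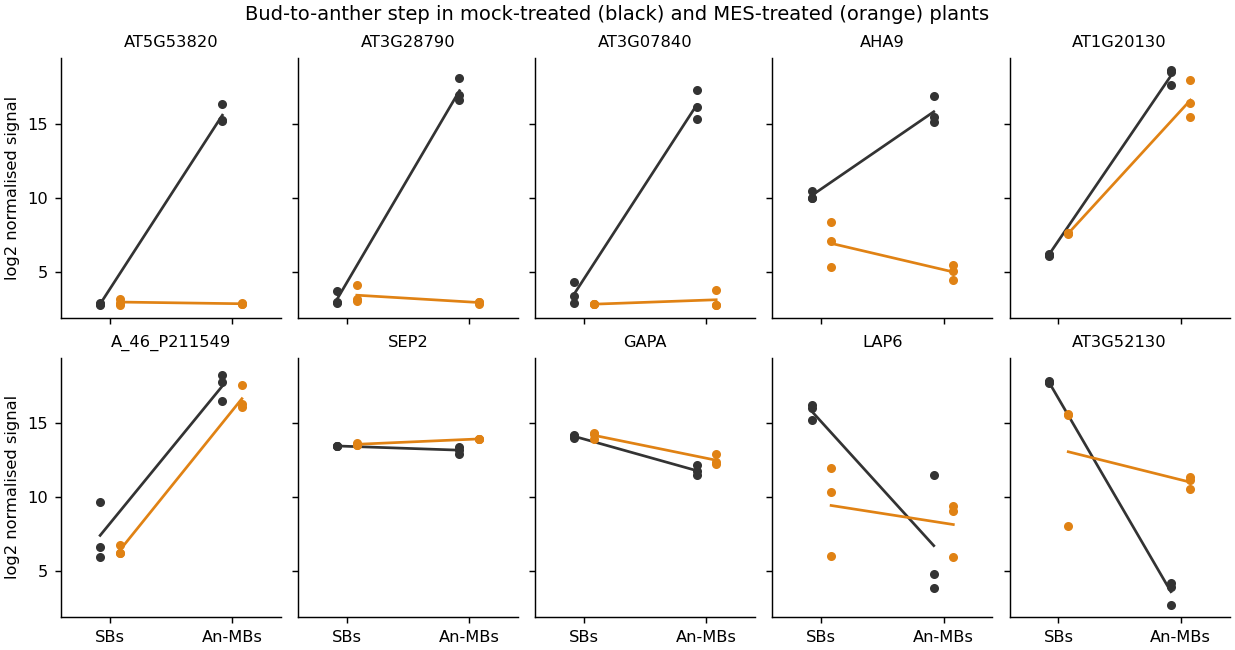
Level of 10 probes (log2 normalised signal) in SBs and An-MBs of mock-treated (black) and MES-treated (orange) plants, with a point for each of 3 arrays and lines through the means. AT5G53820, AT3G28790 and AT3G07840 rose by over 12 log2 units in mock-treated plants and stayed at background after MES treatment, whereas AT1G20130 and A_46_P211549 rose in both.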

How the data were processed

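The deposited series table holds log2 values made by the authors from Agilent Feature Extraction signals by quantile normalisation over all 24 arrays. The processing notes name Feature Extraction 9.1, while the file headers name 10.7.3.1. The deposited scanner files hold processed signal intensity and spot flags per probe. From these files the log2 table was recomputed and the flags were read. The absolute difference from the deposited log2 values had a median of 6.54e-07, a 99th percentile of 0.000961 and a maximum of 2.48. The main fit used the deposited values. In the scanner files the signals of the 50 probes with several spots were averaged and 1417 control spots were left out. In the fits outlying spots received weight 0.

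SBs and An-MBs of mock-treated plants (3 arrays each) were compared with limma 3.58.1 in R 4.3.3 (lmFit, eBayes, two-sided, Benjamini-Hochberg over all tested probes), and the interaction with MES on 12 arrays. The study's own test, here called the methods' t-test (p below 0.001 and 2-fold), was an alternative on the same values. The number of arrays limits the precision. The authors' mean and fold columns in their supplementary tables were not used, and only probe-to-gene names were taken from there. None of the probes' target identifiers matched the RefSeq gene table (0 matches), so no sequence is shown.

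Named are the 6 steepest called rises and falls among probes above background on all 6 arrays, the 10 steepest of each with an Arabidopsis name, the 3 steepest of each per list with the uncalled members needed to describe it, and probes of LAP6, SEP2, BEL1, ATHB-15, ARF17 and of genes with over 3 probes. Other probes named with values were chosen after their values were seen. The comparison, its members and the lists were chosen with earlier results of these data known. The procedure was tested on simulated data.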

Additional observations from a re-analysis of the deposited data

Results flagged for a closer look

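Probes are listed here because the step from SBs to An-MBs differed between mock-treated and MES-treated plants in the interaction test, which 1489 of 36002 probes passed. Values are log2 interaction differences, MES step minus mock step, for probes among the 6 or 10 steepest changes of the mock step. A negative value marks a rise that was smaller or absent after MES treatment, or became a fall. A steep mock step is itself part of the difference, so the choice favoured large differences against its direction. The sizes and adjusted p-values are thus no independent evidence. Named probes also came from tables of transcripts picked because MES changed them or tissues differed.

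Among the named rises the mean difference was -15.4 for AT3G28980, -14.6 for the steepest probe of AT3G28790, -13.2 for 2 probes of AT3G07840, -13.2 for the 4 probes of AT5G53820 and -12.5 for the 2 probes of AT5G48575. The largest adjusted p among these was 2.9e-05. For AT5G53820 the mean mock step was 13.2 and the mean MES step 0.0091. AT3G28980 had a mock step of 12.4 and a fitted MES step of -3.01. In MES-treated plants it was weak in SBs (mean 6.3) and at background in An-MBs, so the size of that step was not measured. The GDSL lipase AT1G20130 differed by -3.10 (adjusted p = 0.041), and this did not pass without MES SBs replicate 1 (adjusted p = 0.0904) or any 1 of 8 other arrays (0.0755 to 0.0986). Among probes without a name the difference was -10.2 for A_46_P163374, whose MES step was 0.03, and -4.52 for A_46_P138154 and -4.50 for A_46_P316380, which rose in both treatments. The difference of A_46_P316380 did not pass without MES SBs replicate 1 (adjusted p = 0.054) or any 1 of 6 other arrays (0.0509 to 0.0693).

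Among the falls the difference was 5.34 for AT5G15140, 5.84 for TBL43 (AT2G30900), 9.22 for AT5G17200 and 12.1 for AT3G52130, and 8.21, 8.92 and 9.73 for the unnamed A_46_P358760, A_46_P225549 and A_46_P353410. In MES-treated SBs replicate 1 several of these probes stood below the other replicates, for A_46_P225549 at 9.36 against 14.3 and 15.2, and without that array the differences were 7.11 for A_46_P225549, 6.43 for A_46_P358760, 7.63 for A_46_P353410, 9.61 for AT3G52130, 8.93 for AT5G17200, 4.92 for TBL43 and 4.49 for AT5G15140, with adjusted p-values of at most 0.045. Each of these differences also passed without MES An-MBs replicate 2, with adjusted p-values of at most 0.047. Without other single arrays that of A_46_P225549 failed in 6 cases, those of A_46_P358760 and A_46_P353410 in 7 cases each (adjusted p of 0.0522 to 0.111) and that of AT5G15140 in 1 (without mock SBs replicate 1, 0.0575).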

How the results depend on the processing

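The counts of 2891 rises and 3229 falls became 3007 and 2796 after a 75th percentile shift (51.8% of calls upward, against 47.2%), 2444 and 2668 with normexp, 2814 and 3105 with normalisation over the 6 arrays, 2796 and 3042 without the detection filter, 2828 and 3196 with all 24 arrays in 1 fit and 3895 and 4555 without the 2-fold limit. They fell most where probes had to be above background on all 6 arrays (1862 rises, with fewer probes tested) and under the methods' t-test, which gave 703 and 555 at its unadjusted threshold and 1650 and 1619 after Benjamini-Hochberg adjustment. Leaving out single arrays gave 2015 to 3446 rises and 1865 to 4773 falls, the highest without An-MBs replicate 2. The interaction count of 1489 became 660 with detection on all 12 arrays and 904 with the replicate block, and 854 to 3750 without single arrays, namely 854 without mock SBs replicate 1, 968 without MES SBs replicate 1 and 3750 without MES An-MBs replicate 2. The causes were not tested. With the replicate block the mock step had 2663 rises and 2845 falls. Among these were 2485 of the 2891 rises and 2610 of the 3229 falls of the main fit. The mock replicate numbers coincide with slides, and the main fit did not use them as pairs. The correlations of same-numbered deviations were 0.31, 0.09 and 0.08. For SBs replicates 1 and 2 the same-numbered An-MBs array gave the highest value. For SBs replicate 3 it gave 0.0754, hardly below the 0.0769 of An-MBs replicate 2. These values do not settle whether the numbers are pairs. Among the many calls that the block removed were those of FAR1, HTA10, XTR4, AT2G47670, RIC1, ESL1, GDC1 and TROL, and of single probes of GAPA-2, SCN1, ATOPT1 and AT2G27180. The MES counts without single arrays were 3584 and 3985, and 1047 and 342. None of the 6120 called probes of the mock step and of the 1489 probes of the interaction changed sign under an alternative that gave it a value. For the mock step this was largely fixed in advance and is no support. The groups did not overlap for the called probes with 1 exception, so leaving out 1 array could not reverse their sign. Alternatives that changed only the test, the filter or the threshold reused the same values. Signals near 3 lie at background and have no order.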

Other observations

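Further down-regulated probes were chosen for description after their values were seen, and stand for no group. MYB51, a regulator of indole glucosinolate synthesis, was at 10.44, 9.71 and 10.53 in SBs and at 6.29, 6.60 and 6.54 in An-MBs, a 13.4-fold fall, and stayed at 6.57 in An-LBs. The glucosinolate-related AOP1 fell from 7.86, 6.95 and 7.23 to background, at least 6.71-fold. The cysteine-rich receptor kinase CRK10 fell by 2.78 and the transporter PEN3 by 2.79, with An-MBs replicates of 7.41, 6.62 and 4.86 for the latter. Both calls were lost without SBs replicate 1 or 3, that of PEN3 also without SBs replicate 2 and that of CRK10 without An-MBs replicate 1 (adjusted p of 0.0505 to 0.0841).

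Other falls were followed by high levels in An-LBs. SUFE2, a plastid activator of cysteine desulfurase, fell on 3 probes by 3.08, 3.74 and 3.82 and averaged 16.53 to 16.97 in An-LBs, above Ls (12.79 to 14.45). The germin-like protein GLP3 fell by 3.50 and averaged 15.15 in An-LBs.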
